A study of Mus musculus with 9 samples.

Results

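The genes described here are Hif1a, the genes of oxygen sensing, known targets of the transcription factor HIF-1 and the enzymes of glycolysis, 37 genes in all, chosen by their symbols. All 37 were found among the 35321 genes of the deposited table, and all 37 were among the 13687 genes that reached 1 FPKM in at least 3 of 9 samples and were tested. FPKM is the number of sequenced fragments per length of a gene, scaled to the depth of the library. The length that fitted these values is that of all annotated exons of a gene together, not that of a single transcript. Levels of different genes can thus be compared only roughly. The genes fall into 17 glycolysis enzymes, 5 regulators and transporters of glycolysis, 3 genes of oxygen sensing and 12 other HIF-1 targets.

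The samples were tumours grown under the skin from LLC (Lewis lung carcinoma) cells, a mouse line of the C57BL/6 strain, in the right flank. The hosts were male C57BL/6 mice, 4 to 5 weeks old. From 5 days after injection the mice received digoxin at 1 mg/kg, digoxin at 0.1 mg/kg or vehicle (PBS), all intraperitoneally, and each group holds 3 samples. Poly(A) RNA was sequenced as paired reads of 150 bp. Digoxin is a cardiac glycoside that blocks the Na,K-ATPase, and in cultured human cells it is known to lower the synthesis of HIF-1 alpha protein, which was not measured here. The tumours were sequenced whole, so they hold LLC cells together with the host's stromal, vascular and immune cells, and no marker of the LLC line itself was among the lists used. Whether each sample is a mouse of its own is not stated in the labels; p-values thus cover the spread among these 3 samples a group, and that spread could be technical.

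HIF-1 is a pair of proteins, HIF-1 alpha and ARNT, that binds a short motif in its target genes. In the presence of oxygen, prolyl hydroxylases (encoded by Egln1 and Egln3, among others) mark HIF-1 alpha for destruction through the VHL protein. When oxygen is low, HIF-1 alpha accumulates, and its targets bring in more glucose, run glycolysis faster, export lactate, divert pyruvate from the mitochondria and promote vessel growth. In solid tumours such as subcutaneous grafts these genes are commonly high in cells far from vessels, and many cancer cells use glycolysis also when oxygen is present.

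A pair of libraries stood apart from the rest of their groups in a principal component analysis of all tested genes. On the first component, which held 69.4% of the variance, digoxin 1 mg/kg sample 1 lay at 9.12 and the other two samples of that dose at 37.9 and 36.6. Digoxin 0.1 mg/kg sample 2 lay at -0.60 and the other two at 37.9 and 35.7, while the vehicle samples lay between -55.0 and -47.6. Digoxin 1 mg/kg sample 1 also lay alone on the second component (12.4% of the variance), at -43.95. Its values move many of the results below, so each is given with and without it where it matters. The depth in the denominator of the FPKM values was recovered as 40517062 to 42252370 reads at 1 mg/kg, 42870997 to 43319883 reads at 0.1 mg/kg and 48649867 to 51810956 reads with vehicle.

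At 1 mg/kg, 8 of the 12 other HIF-1 targets rose, led by P4ha2, Adm, Ndrg1 and Bnip3, as did 5 of the 17 glycolysis enzymes, among them Aldoa and Eno2. By limma's moderated test on log2(FPKM + 1), with Benjamini-Hochberg adjustment over all tested genes and a threshold of 0.05, 15 of the 37 genes (40.5%) rose at 1 mg/kg and 1 (2.70%), Ldhb, fell. Among all tested genes 20.7% rose and 25.2% fell, 45.9% in all. The median log2 difference from vehicle was 0.40 over the 37 genes and -0.037 over all tested genes. The 0.1 mg/kg dose gave another picture, with 4 of the 37 genes (10.8%) higher and 4 (10.8%) lower, against 21.6% higher and 20.7% lower (42.2% in all) of all tested genes. All values at 1 mg/kg lay above all vehicle values in 18 of the 37 genes (48.6%) and below them in 2 (5.41%), against 25.2% and 33.1% of all tested genes. At 0.1 mg/kg this held for 8 genes above (21.6%) and 13 below (35.1%), against 32.3% and 27.9%. The median log2 difference at 0.1 mg/kg was 0.011 over the 37 genes and 0.018 over all tested genes. Both doses were set against the same 3 vehicle samples, so their differences from vehicle are not independent. In whole tumours, fewer cells of a type and less RNA per cell cannot be told apart, here and in every result that follows.

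**Figure D1:**
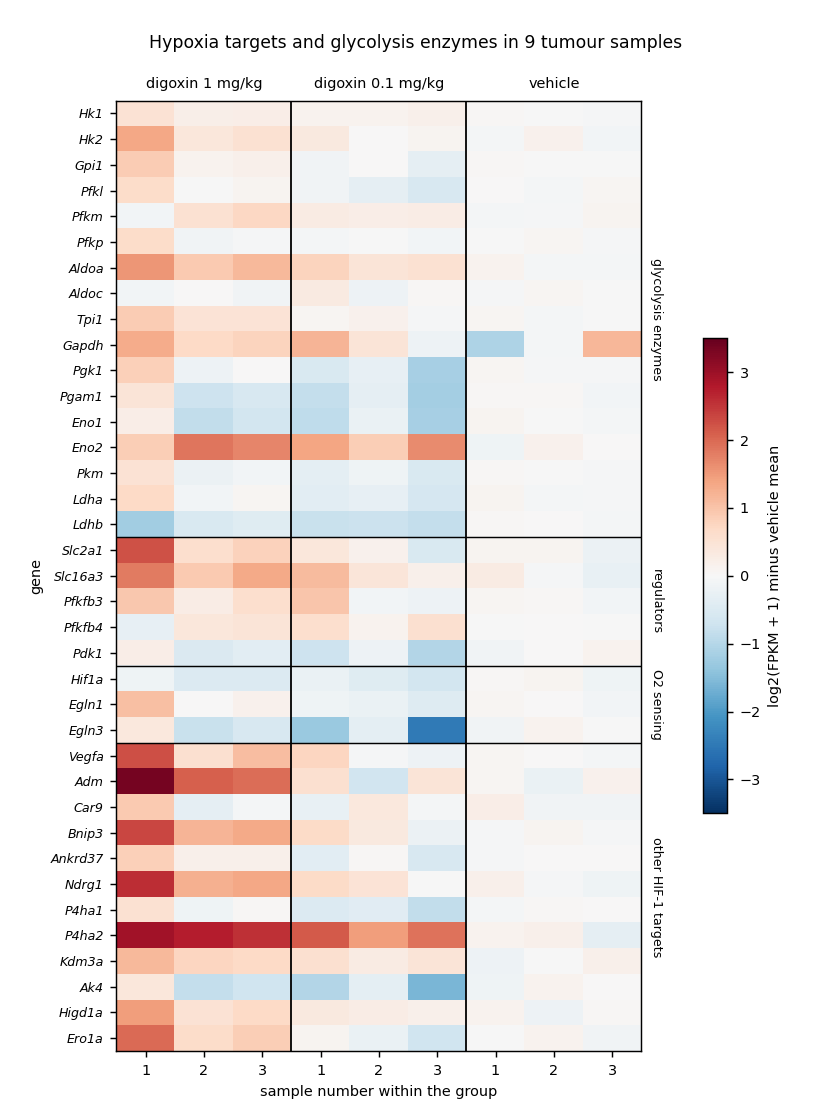
Log2(FPKM + 1) of the 37 genes (rows, in 4 groups by role) in the 9 tumour samples (columns), minus the mean of the 3 vehicle samples, with red above and blue below vehicle. Digoxin 1 mg/kg sample 1 is the highest of the 9 samples in 30 of the 37 rows, and P4ha2 is red in all 6 samples from digoxin-treated mice.

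The promoters of 6 of these genes are shown because the genes represent the range of responses: 5 that rose at 1 mg/kg (P4ha2 and Eno2, which rose at both doses, with Bnip3, Adm and Slc2a1) and Egln3, which fell at 0.1 mg/kg. They are RefSeq sequences of build GRCm38.p6, from 250 bases before to 50 bases after the annotated start of transcription, written in the direction of transcription. Capitals mark the core of the HIF binding motif, ACGTG or GCGTG, and the same motifs read on the other strand, CACGT or CACGC. Matches can overlap each other, as in the E-box CACGTG, which other factors also bind.

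P4ha2 promoter, chr11:54100674-54100973, forward strand: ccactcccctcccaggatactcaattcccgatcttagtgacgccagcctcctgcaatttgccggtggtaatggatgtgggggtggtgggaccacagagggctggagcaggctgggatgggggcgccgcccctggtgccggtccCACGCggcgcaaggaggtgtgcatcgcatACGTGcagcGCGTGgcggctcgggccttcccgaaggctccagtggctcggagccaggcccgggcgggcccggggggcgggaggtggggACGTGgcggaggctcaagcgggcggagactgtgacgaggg
Bnip3 promoter, chr7:138909457-138909756, reverse strand: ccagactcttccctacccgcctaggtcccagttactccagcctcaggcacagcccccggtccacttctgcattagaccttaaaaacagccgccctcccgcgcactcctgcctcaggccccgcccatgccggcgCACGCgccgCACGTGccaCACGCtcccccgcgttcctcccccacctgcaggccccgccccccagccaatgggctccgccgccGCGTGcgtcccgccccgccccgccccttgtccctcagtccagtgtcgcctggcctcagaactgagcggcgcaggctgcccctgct
Adm promoter, chr7:110627407-110627706, forward strand: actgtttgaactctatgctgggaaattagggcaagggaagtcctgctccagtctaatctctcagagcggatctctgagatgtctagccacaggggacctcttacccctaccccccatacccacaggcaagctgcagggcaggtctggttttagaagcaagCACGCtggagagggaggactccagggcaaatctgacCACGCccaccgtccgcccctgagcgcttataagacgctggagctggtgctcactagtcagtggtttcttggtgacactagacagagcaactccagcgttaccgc
Slc2a1 promoter, chr4:119108495-119108794, forward strand: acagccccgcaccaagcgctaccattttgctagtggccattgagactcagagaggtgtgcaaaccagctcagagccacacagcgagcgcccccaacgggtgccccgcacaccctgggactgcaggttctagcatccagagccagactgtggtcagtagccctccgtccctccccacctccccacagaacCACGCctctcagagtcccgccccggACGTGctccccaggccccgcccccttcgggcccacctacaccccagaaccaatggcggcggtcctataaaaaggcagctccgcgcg
Egln3 promoter, chr12:54203825-54204124, reverse strand: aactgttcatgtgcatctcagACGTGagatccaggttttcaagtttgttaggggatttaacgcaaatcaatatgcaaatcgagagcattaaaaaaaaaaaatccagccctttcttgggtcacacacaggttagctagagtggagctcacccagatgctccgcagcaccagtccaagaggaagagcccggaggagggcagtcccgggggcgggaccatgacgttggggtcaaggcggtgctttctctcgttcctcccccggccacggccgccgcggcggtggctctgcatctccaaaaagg
Eno2 promoter, chr6:124769624-124769923, reverse strand: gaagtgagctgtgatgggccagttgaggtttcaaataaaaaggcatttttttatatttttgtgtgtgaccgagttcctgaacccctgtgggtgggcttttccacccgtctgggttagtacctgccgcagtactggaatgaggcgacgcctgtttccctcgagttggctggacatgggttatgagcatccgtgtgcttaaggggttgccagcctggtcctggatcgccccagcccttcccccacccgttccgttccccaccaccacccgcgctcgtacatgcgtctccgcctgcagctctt

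The P4ha2 window holds 4 matches, that of Bnip3 5, those of Adm and Slc2a1 2 each, that of Egln3 1 and that of Eno2 none. A RefSeq window was found for 36 of the 37 genes (all but Ndrg1), and in 33 of these 36 (91.7%) at least 1 window held a match. The same motifs occur in at least 1 window of 12628 of 27025 genes in the RefSeq table (46.7%). By single windows the shares were 44 of 55 (80.0%) and 14380 of 32851 (43.8%). Windows of the 37 genes were restricted by chromosome before counting, and those of all genes were not. The 37 genes were chosen in part as known HIF-1 targets, so these shares are no result of the expression data. Both motifs contain a CpG, so these shares also depend on base composition, and a match is a run of letters rather than a shown binding site.

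Hif1a, which encodes the oxygen-regulated subunit itself, had 34.5, 27.1 and 27.3 FPKM at 1 mg/kg, 32.03, 28.4 and 23.9 FPKM at 0.1 mg/kg, and 39.2, 40.9 and 34.6 FPKM with vehicle, in the order of samples 1, 2 and 3. Every digoxin sample lay below every vehicle sample, with digoxin 1 mg/kg sample 1 closest to the vehicle range. The fall passed the test at 0.1 mg/kg (log2 difference -0.44 ± 0.13, adjusted p = 0.0285) and missed it at 1 mg/kg (log2 difference -0.36 ± 0.13, adjusted p = 0.0506), where ± gives the standard error here and beside every log2 difference. The call at 0.1 mg/kg was lost when 0.1 mg/kg sample 3 or vehicle sample 1 or 2 was left out, with adjusted p up to 0.1. The difference at 1 mg/kg passed without digoxin 1 mg/kg sample 1 (log2 difference -0.47, adjusted p = 0.0139), and also without 0.1 mg/kg sample 1 or 3. With no filter on low values the call at 0.1 mg/kg was lost (adjusted p = 0.0656), whereas quantile normalization, TPM scaling and limma-voom on recovered reads put the 1 mg/kg difference past the threshold (adjusted p = 0.0395, 0.0272 and 0.047).

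Egln3, a prolyl hydroxylase that is itself induced by HIF, had 110.5, 49.2 and 57.6 FPKM at 1 mg/kg, 33.8, 67.2 and 14.6 FPKM at 0.1 mg/kg, and 78.8, 92.8 and 85.0 FPKM with vehicle. At 0.1 mg/kg all 3 samples lay below the vehicle samples but spread widely, with sample 2 closest to vehicle and sample 3 lowest. Egln3 fell at 0.1 mg/kg (log2 difference -1.37 ± 0.49, adjusted p = 0.0491), but the call held in only 2 of the 9 fits that leave out 1 library, the fit without digoxin 1 mg/kg sample 1 and the one lacking 0.1 mg/kg sample 2; the adjusted p reached 0.136 without 0.1 mg/kg sample 3. It was also lost with no filter (adjusted p = 0.119), without the variance trend (adjusted p = 0.0531) and with only the 2 groups in the fit (adjusted p = 0.0504). At 1 mg/kg the values spread on both sides of vehicle and the difference missed the threshold (log2 difference -0.32 ± 0.49, adjusted p = 0.607; -0.67 without sample 1, adjusted p = 0.286). Egln1, the main oxygen-sensing hydroxylase of most tissues, had 69.6, 33.6 and 36.9 FPKM at 1 mg/kg, 29.6, 28.2 and 23.9 FPKM at 0.1 mg/kg, and 35.2, 33.6 and 31.2 FPKM with vehicle. It passed at neither dose (adjusted p = 0.194 at 1 mg/kg, 0.35 at 0.1 mg/kg), and only digoxin 1 mg/kg sample 1 was well above the other samples. Without that sample Egln1 fell at 0.1 mg/kg (log2 difference -0.29, adjusted p = 0.034).

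Of the 12 other HIF-1 targets, 8 rose and none fell at 1 mg/kg (all tested genes 20.7% and 25.2%). Their median log2 difference was 1.03, or 0.74 without digoxin 1 mg/kg sample 1. At 0.1 mg/kg 2 rose and 1 fell (all tested genes 21.6% and 20.7%), with a median of 0.15. Their summed level was 693, 323 and 348 FPKM at 1 mg/kg, 224, 183 and 158 FPKM at 0.1 mg/kg and 182, 187 and 182 FPKM with vehicle. The sums at 1 mg/kg thus lay above all the others, while those at 0.1 mg/kg overlapped the vehicle sums.

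P4ha2 encodes a collagen prolyl hydroxylase subunit and was the gene of the 37 with the largest difference from vehicle at both doses. It had 37.5, 32.6 and 28.9 FPKM at 1 mg/kg, 21.2, 12.8 and 17.7 FPKM at 0.1 mg/kg, and 4.53, 4.67 and 3.08 FPKM with vehicle. No sample overlapped another group, and the levels were ordered 1 mg/kg, 0.1 mg/kg, vehicle. The rise was 2.75 ± 0.19 on the log2 scale at 1 mg/kg (SE, adjusted p = 0.00015) and 1.83 ± 0.19 at 0.1 mg/kg (adjusted p = 0.000581), and both calls held without any 1 of the 9 libraries. The difference between the doses missed the threshold (log2 difference 0.92 ± 0.19, adjusted p = 0.113).

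Its paralogue P4ha1, the more common catalytic subunit of the same enzyme, had 85.4, 53.02 and 60.0 FPKM at 1 mg/kg, 41.7, 43.9 and 31.7 FPKM at 0.1 mg/kg, and 55.8, 60.3 and 59.6 FPKM with vehicle. At 0.1 mg/kg every sample lay below every vehicle sample and P4ha1 fell (log2 difference -0.58 ± 0.18, adjusted p = 0.0296). This call was lost without 0.1 mg/kg sample 1 or 3 or any 1 of the vehicle samples, with adjusted p of 0.0559 to 0.104, and with no filter (adjusted p = 0.073). Samples 2 and 3 at 1 mg/kg were close to vehicle and only sample 1 was higher (adjusted p = 0.529).

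Adm encodes adrenomedullin, a vasodilator peptide, and rose at the higher dose. It had 130.1, 53.7 and 48.4 FPKM at 1 mg/kg, 17.9, 7.06 and 16.7 FPKM at 0.1 mg/kg, and 12.5, 9.91 and 13.4 FPKM with vehicle. All 3 samples at 1 mg/kg lay above every other sample, and the 0.1 mg/kg values lay on both sides of vehicle. Adm rose at 1 mg/kg (log2 difference 2.46 ± 0.42, adjusted p = 0.00257), also without sample 1 (log2 difference 2.02, adjusted p = 0.00238), and did not pass at 0.1 mg/kg (log2 difference 0.11 ± 0.42, adjusted p = 0.839). Without both libraries that stood apart, Adm passed at 0.1 mg/kg as higher (log2 difference 0.51, adjusted p = 0.00758). Between the doses it had the smallest adjusted p of the 37 genes, which missed the threshold (log2 difference 2.35 ± 0.42, adjusted p = 0.0953).

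Bnip3 and Ndrg1 showed a like pattern. Bnip3, a mitochondrial protein of mitophagy, had 91.95, 40.7 and 44.8 FPKM at 1 mg/kg, 28.4, 22.4 and 14.96 FPKM at 0.1 mg/kg, and 16.8, 18.6 and 16.7 FPKM with vehicle. Ndrg1, a stress-responsive gene long used as a hypoxia marker, had 92.6, 36.1 and 38.5 FPKM at 1 mg/kg, 23.7, 20.5 and 14.5 FPKM at 0.1 mg/kg, and 16.5, 14.2 and 13.1 FPKM with vehicle. In both genes the 1 mg/kg samples stood above all the others, with sample 1 far above the other two samples of that dose. Bnip3 rose at 1 mg/kg (log2 difference 1.61 ± 0.31, adjusted p = 0.00422) and so did Ndrg1 (log2 difference 1.73 ± 0.33, adjusted p = 0.00427), and without sample 1 the log2 differences were 1.25 (adjusted p = 0.00284) and 1.30 (adjusted p = 0.00139). Neither passed at 0.1 mg/kg (adjusted p = 0.49 for Bnip3 and 0.38 for Ndrg1).

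Vegfa encodes the growth factor that drives new vessels toward hypoxic tissue. It had 70.5, 21.3 and 31.01 FPKM at 1 mg/kg, 24.2, 13.7 and 12.3 FPKM at 0.1 mg/kg, and 14.6, 14.2 and 13.3 FPKM with vehicle. The lowest sample at 1 mg/kg was above the highest vehicle sample, and the 0.1 mg/kg samples overlapped vehicle. Vegfa rose at 1 mg/kg (log2 difference 1.31 ± 0.39, adjusted p = 0.0257). Without sample 1 the log2 difference was 0.83 (adjusted p = 0.0301), while leaving out vehicle sample 1, 2 or 3 took the call away (adjusted p 0.0608 to 0.0738), as did dropping the filter (adjusted p = 0.0693).

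Ero1a, an oxidase that helps proteins fold in the endoplasmic reticulum, had 101, 39.2 and 45.99 FPKM at 1 mg/kg, 26.4, 20.97 and 14.9 FPKM at 0.1 mg/kg, and 24.4, 27.04 and 22.7 FPKM with vehicle. It rose at 1 mg/kg (log2 difference 1.17 ± 0.33, adjusted p = 0.0195), or by 0.76 without sample 1 (adjusted p = 0.0156), a call lost without vehicle sample 1 or 3 (adjusted p up to 0.0638) and with no filter (adjusted p = 0.0542). Higd1a, a small mitochondrial protein, had 33.5, 16.6 and 19.2 FPKM at 1 mg/kg, 14.9, 13.9 and 13.2 FPKM at 0.1 mg/kg, and 12.5, 10.2 and 11.9 FPKM with vehicle. It rose at 1 mg/kg (log2 difference 0.89 ± 0.22, adjusted p = 0.0119) in every fit that left out 1 library, and at 0.1 mg/kg only without digoxin 1 mg/kg sample 1 (adjusted p = 0.0493). Kdm3a, a histone demethylase induced by hypoxia, had 25.4, 19.1 and 18.6 FPKM at 1 mg/kg, 16.6, 13.7 and 15.3 FPKM at 0.1 mg/kg, and 9.65, 10.9 and 12.5 FPKM with vehicle. The Kdm3a values of the 3 groups did not overlap, and it rose at 1 mg/kg (log2 difference 0.86 ± 0.14, adjusted p = 0.00214) and at 0.1 mg/kg (log2 difference 0.43 ± 0.14, adjusted p = 0.0355). The call at 0.1 mg/kg was lost without 0.1 mg/kg sample 1 or 3 or vehicle sample 1 or 2 (adjusted p up to 0.113), with no filter (adjusted p = 0.08) and under quantile normalization or TPM scaling (adjusted p = 0.0538 and 0.0976).

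The remaining targets passed in neither comparison with vehicle. Ak4, a mitochondrial adenylate kinase, had 13.6, 5.33 and 5.97 FPKM at 1 mg/kg, 4.56, 7.92 and 2.72 FPKM at 0.1 mg/kg, and 9.08, 11.2 and 10.4 FPKM with vehicle. Its log2 difference at 0.1 mg/kg was -0.98 ± 0.37 (adjusted p = 0.0591), and it passed without digoxin 1 mg/kg sample 1 or without 0.1 mg/kg sample 2 (adjusted p = 0.0191 and 0.0174), and also under TPM scaling (adjusted p = 0.0424) and in limma-voom (adjusted p = 0.0474). Car9, carbonic anhydrase 9, one of the most used hypoxia markers in human tumours, was low in all samples, between 1.08 and 3.92 FPKM. Its difference from vehicle was 0.18 ± 0.31 on the log2 scale at 1 mg/kg (adjusted p = 0.648) and changed sign to -0.19 without sample 1. Ankrd37, which encodes an ankyrin repeat protein, had 7.86, 4.66 and 4.67 FPKM at 1 mg/kg, 2.88, 4.16 and 2.37 FPKM at 0.1 mg/kg, and 3.90, 4.05 and 4.04 FPKM with vehicle, with sample 1 at 1 mg/kg highest (adjusted p = 0.14 at 1 mg/kg).

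**Figure D2:**
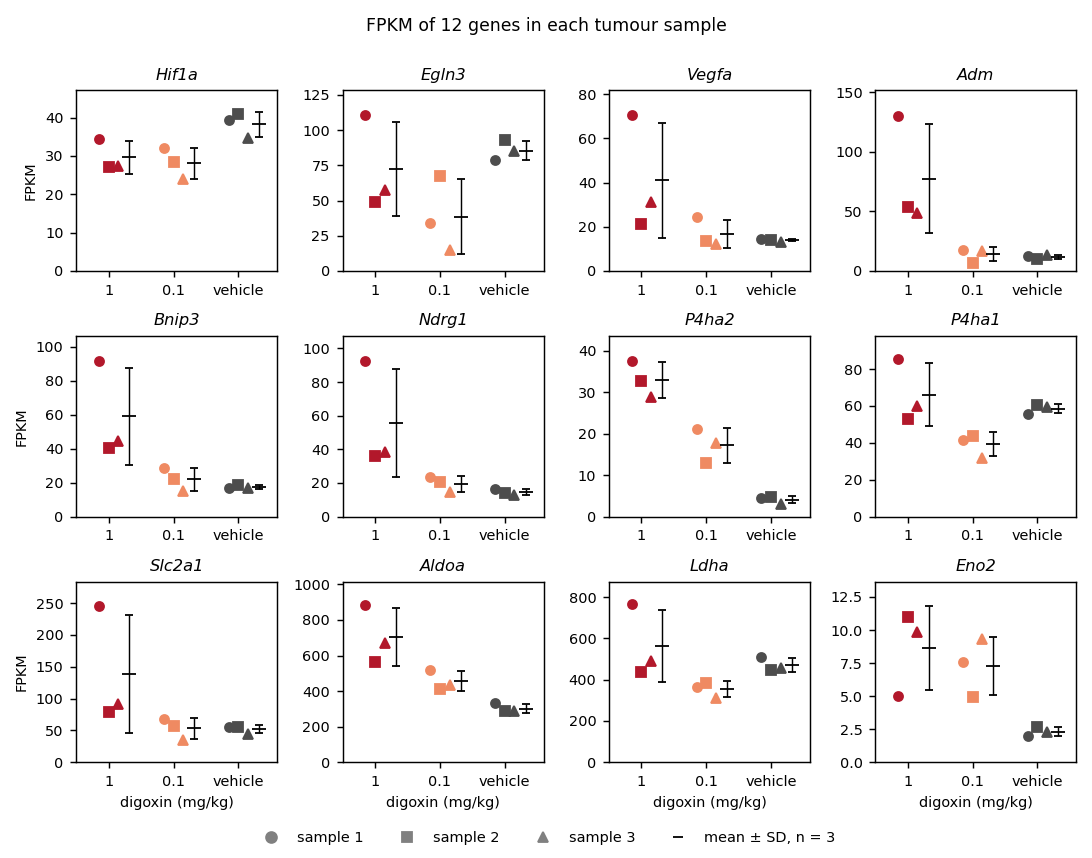
FPKM (vertical axes, from 0) of 12 of the genes in each of the 3 samples at digoxin 1 mg/kg, digoxin 0.1 mg/kg and vehicle, with the marker shape giving the sample number and the black bar the mean ± SD of 3 samples. Sample 1 at 1 mg/kg is the highest point in every panel but those of Hif1a and Eno2, P4ha2 and Eno2 are above vehicle in all 6 digoxin samples, and Hif1a is below vehicle in all 6.

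Glucose enters through transporters and lactate leaves through others, and a transporter of each kind rose at 1 mg/kg. Slc2a1, the glucose transporter GLUT1, had 245, 78.2 and 90.99 FPKM at 1 mg/kg, 67.6, 57.3 and 34.9 FPKM at 0.1 mg/kg, and 55.3, 55.2 and 44.5 FPKM with vehicle. Sample 1 at 1 mg/kg was far above the other two of its dose, which were still above every vehicle sample. Slc2a1 rose at 1 mg/kg (log2 difference 1.21 ± 0.41, adjusted p = 0.0376), and without sample 1 its log2 difference was 0.70 (adjusted p = 0.0439). The call was lost without any 1 vehicle sample (adjusted p 0.077 to 0.11), with no filter (adjusted p = 0.0962) and with only the 2 groups in the fit (adjusted p = 0.0501). Slc16a3, the lactate exporter MCT4, had 39.03, 20.4 and 27.2 FPKM at 1 mg/kg, 23.2, 14.2 and 11.9 FPKM at 0.1 mg/kg, and 12.8, 10.02 and 8.45 FPKM with vehicle. It rose at 1 mg/kg (log2 difference 1.36 ± 0.28, adjusted p = 0.00585), without sample 1 as well (log2 difference 1.12, adjusted p = 0.0104), and at 0.1 mg/kg it did not pass (adjusted p = 0.13).

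The 3 regulators passed in neither comparison of all 9 samples. Pdk1, the kinase that shuts pyruvate dehydrogenase and so keeps pyruvate out of the mitochondria, had 14.6, 8.38 and 9.24 FPKM at 1 mg/kg, 7.04, 10.7 and 5.53 FPKM at 0.1 mg/kg, and 11.1, 12.3 and 13.4 FPKM with vehicle. All 0.1 mg/kg samples lay below vehicle, with a log2 difference of -0.64 ± 0.24 (adjusted p = 0.0601), which passed without digoxin 1 mg/kg sample 1 (adjusted p = 0.0261) or without 0.1 mg/kg sample 2 (adjusted p = 0.0122), under TPM scaling (adjusted p = 0.0374) and in limma-voom (adjusted p = 0.0499). Pfkfb3 and Pfkfb4 make and break fructose 2,6-bisphosphate, the activator of phosphofructokinase. Pfkfb3 had 9.35, 5.38 and 7.11 FPKM at 1 mg/kg, 9.48, 3.99 and 3.74 FPKM at 0.1 mg/kg, and 4.64, 4.51 and 3.98 FPKM with vehicle, and passed at 1 mg/kg without 0.1 mg/kg sample 1 (adjusted p = 0.0236) or with only the 2 groups in the fit (adjusted p = 0.0321). Pfkfb4 had 3.96, 6.95 and 7.15 FPKM at 1 mg/kg, 8.04, 5.51 and 7.94 FPKM at 0.1 mg/kg, and 4.97, 5.10 and 4.96 FPKM with vehicle, and was 1 of 3 genes whose lowest value was that of digoxin 1 mg/kg sample 1. Without that sample Pfkfb4 rose at 1 mg/kg (log2 difference 0.42, adjusted p = 0.0353) and at 0.1 mg/kg (log2 difference 0.43, adjusted p = 0.0234).

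Of the 17 glycolysis enzymes, 5 rose and 1 fell at 1 mg/kg, and 2 rose and 1 fell at 0.1 mg/kg. Of all tested genes 20.7% rose and 25.2% fell at 1 mg/kg, and 21.6% rose and 20.7% fell at 0.1 mg/kg. Without digoxin 1 mg/kg sample 1, 6 of the 17 rose and 3 fell at 1 mg/kg, and 3 rose and 7 fell at 0.1 mg/kg. In that fit 28.1% of all tested genes rose and 25.7% fell at 1 mg/kg, and 27.8% rose and 23.9% fell at 0.1 mg/kg. With all 9 samples the risers at 1 mg/kg were Hk1, Hk2, Aldoa, Tpi1 and Eno2. Their summed level was 5048, 2949 and 3282 FPKM at 1 mg/kg, 2578, 2797 and 2132 FPKM at 0.1 mg/kg and 3138, 2916 and 2926 FPKM with vehicle. Sample 1 at 1 mg/kg stood alone at the top, samples 2 and 3 were close to vehicle, and all 0.1 mg/kg sums were below all vehicle sums.

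At the entry of glucose into the pathway, the hexokinases Hk1 and Hk2, which phosphorylate it, both rose at 1 mg/kg. Hk1, the widely expressed form, had 28.97, 23.2 and 23.9 FPKM at 1 mg/kg, 21.8, 21.9 and 22.98 FPKM at 0.1 mg/kg, and 20.6, 19.98 and 19.6 FPKM with vehicle, and rose at 1 mg/kg (log2 difference 0.32 ± 0.089, adjusted p = 0.0197). Hk2, the form induced in many tumours, had 46.7, 23.4 and 25.9 FPKM at 1 mg/kg, 22.7, 17.7 and 18.9 FPKM at 0.1 mg/kg, and 16.9, 19.6 and 16.6 FPKM with vehicle, and rose at 1 mg/kg (log2 difference 0.76 ± 0.23, adjusted p = 0.0259). No 1 mg/kg sample overlapped vehicle in either gene, and without sample 1 the log2 differences were 0.22 for Hk1 (adjusted p = 0.02) and 0.46 for Hk2 (adjusted p = 0.0138). The Hk1 call was lost without vehicle sample 2 or 3 (adjusted p up to 0.0694) and under TPM scaling (adjusted p = 0.0611), and the Hk2 call without vehicle sample 1 or 3 (adjusted p up to 0.0796) and with no filter (adjusted p = 0.0672). Neither passed at 0.1 mg/kg.

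The isomerase Gpi1 and the phosphofructokinases Pfkl, Pfkm and Pfkp, which carry out the committed step, passed in neither comparison of all 9 samples. Gpi1 had 213, 124 and 131 FPKM at 1 mg/kg, 104, 116 and 92.5 FPKM at 0.1 mg/kg, and 119, 112 and 112 FPKM with vehicle (adjusted p = 0.113 at 1 mg/kg). Pfkl, the liver form, had 67.3, 42.1 and 45.6 FPKM at 1 mg/kg, 38.7, 33.8 and 28.6 FPKM at 0.1 mg/kg, and 42.8, 40.5 and 44.3 FPKM with vehicle, and fell at 0.1 mg/kg without digoxin 1 mg/kg sample 1 (log2 difference -0.34, adjusted p = 0.0307), without both libraries that stood apart (adjusted p = 0.0384) and with only the 2 groups in the fit (adjusted p = 0.0467). Pfkm, the muscle form, had 17.9, 28.02 and 32.3 FPKM at 1 mg/kg, 23.4, 22.5 and 23.1 FPKM at 0.1 mg/kg, and 18.2, 18.8 and 20.6 FPKM with vehicle. Pfkm was lowest in digoxin 1 mg/kg sample 1 and highest in the other two samples of that dose, and without sample 1 it rose at 1 mg/kg (log2 difference 0.62, adjusted p = 0.00119) and at 0.1 mg/kg (log2 difference 0.25, adjusted p = 0.0247). The summed level of 15 skeletal muscle markers varied between the same samples, at 58.8, 446 and 1267 FPKM at 1 mg/kg, 322, 174 and 375 FPKM at 0.1 mg/kg and 116, 38.6 and 36.4 FPKM with vehicle, and its part in the Pfkm values was not tested. Pfkp, the platelet form, had 20.3, 11.5 and 12.1 FPKM at 1 mg/kg, 12.1, 12.5 and 11.7 FPKM at 0.1 mg/kg, and 12.4, 13.2 and 12.3 FPKM with vehicle (adjusted p = 0.495 at 1 mg/kg).

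Aldolase splits the phosphorylated sugar, and Aldoa had the largest rise among the abundant enzymes. It had 883, 564 and 668 FPKM at 1 mg/kg, 518, 412 and 436 FPKM at 0.1 mg/kg, and 331, 289 and 286 FPKM with vehicle. The 3 groups did not overlap and were ordered 1 mg/kg, 0.1 mg/kg, vehicle. Aldoa rose at 1 mg/kg (log2 difference 1.20 ± 0.16, adjusted p = 0.00119), a call that held without any 1 library, and at 0.1 mg/kg (log2 difference 0.59 ± 0.16, adjusted p = 0.0214). The call at 0.1 mg/kg was lost without 0.1 mg/kg sample 1 or 3 or vehicle sample 2 or 3 (adjusted p up to 0.0755) and with no filter (adjusted p = 0.0647). The annotation used for gene lengths holds 2 gene IDs under the symbol Aldoa, so which of them the deposited row counts is unclear. Aldoc, the brain form, stayed between 1.02 and 1.84 FPKM in all samples, with no call.

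Tpi1, which interconverts the triose phosphates, had 499.9, 376 and 376 FPKM at 1 mg/kg, 285, 300.3 and 264 FPKM at 0.1 mg/kg, and 286, 258 and 271 FPKM with vehicle. It rose at 1 mg/kg (log2 difference 0.61 ± 0.12, adjusted p = 0.00495), without sample 1 as well (log2 difference 0.47, adjusted p = 0.00342), while at 0.1 mg/kg its values overlapped vehicle. A related copy, Tpi-rs11, reached 7.78% of the Tpi1 level, so some reads could have been divided between them. Gapdh, the dehydrogenase often used as a reference gene, had 63.99, 41.6 and 43.98 FPKM at 1 mg/kg, 58.7, 34.8 and 22.3 FPKM at 0.1 mg/kg, and 11.5, 23.97 and 57.6 FPKM with vehicle. These levels are far below those of its neighbours Aldoa and Tpi1 and differ 5-fold among the vehicle samples, which rest on 2320, 4956 and 12328 recovered reads. Gapdh has many processed copies, 4 of which have rows of their own and together reached up to 27.7% of the Gapdh value, and how the authors counted reads shared among copies is not given in the sources used here. Gapdh is therefore reported as uncertain; it passed at neither dose (log2 difference 0.92 ± 0.53, adjusted p = 0.183 at 1 mg/kg), except at 1 mg/kg without vehicle sample 3 (adjusted p = 0.0353).

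Of the later steps, Pgk1, Pgam1 and Eno1 passed at neither dose with all 9 samples as deposited. Pgk1, which makes the first ATP, had 743, 363 and 419.7 FPKM at 1 mg/kg, 287, 337 and 184 FPKM at 0.1 mg/kg, and 436, 401 and 404 FPKM with vehicle. Pgam1, the mutase that follows it, had 333, 148 and 166 FPKM at 1 mg/kg, 136, 195 and 106 FPKM at 0.1 mg/kg, and 251, 251 and 229 FPKM with vehicle. Eno1, the main enolase, had 521, 244 and 283 FPKM at 1 mg/kg, 236, 377 and 198 FPKM at 0.1 mg/kg, and 470.3, 436 and 417 FPKM with vehicle. In all 3 genes every 0.1 mg/kg sample lay below every vehicle sample, and samples 2 and 3 at 1 mg/kg were near or below the lowest vehicle value while sample 1 lay above all of them. The adjusted p at 0.1 mg/kg was 0.0909 for Pgk1, 0.0697 for Pgam1 and 0.0717 for Eno1. Quantile normalization of the 9 samples put all 3 past the threshold there, as lower (adjusted p = 0.0448, 0.0331 and 0.0419), and TPM scaling did so for Pgam1 and Eno1 (adjusted p = 0.0445 and 0.0448). Without digoxin 1 mg/kg sample 1, all 3 fell at 0.1 mg/kg (adjusted p = 0.0263, 0.0122 and 0.0198 in the same order), and at 1 mg/kg Pgam1 and Eno1 fell (log2 differences -0.63 and -0.74, adjusted p = 0.0395 and 0.0314). Related copies reached 3.84% of the level of Pgam1 and 3.51% of that of Eno1.

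Pkm, pyruvate kinase, and Ldha, the lactate dehydrogenase subunit that favours lactate production, were placed in a like way. Pkm had 838, 508 and 552 FPKM at 1 mg/kg, 459, 526 and 403 FPKM at 0.1 mg/kg, and 609, 579 and 573 FPKM with vehicle. Ldha had 764, 438 and 489 FPKM at 1 mg/kg, 366, 385 and 310 FPKM at 0.1 mg/kg, and 507, 448 and 458 FPKM with vehicle. In both genes the 0.1 mg/kg samples lay below every vehicle sample (adjusted p = 0.149 for Pkm and 0.112 for Ldha), and both fell at that dose without digoxin 1 mg/kg sample 1 (adjusted p = 0.0262 and 0.0127) and under quantile normalization (adjusted p = 0.0392 and 0.0345). The difference of Ldha between 1 mg/kg and vehicle was 0.22 ± 0.19 on the log2 scale with all samples and -0.024 without sample 1.

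Eno2, the neuronal enolase and a known HIF-1 target, rose at both doses. It had 5.04, 11.01 and 9.85 FPKM at 1 mg/kg, 7.55, 4.94 and 9.29 FPKM at 0.1 mg/kg, and 1.95, 2.69 and 2.30 FPKM with vehicle. The lowest digoxin value was above the highest vehicle value, and in contrast to most of the genes sample 1 was the lowest of its dose at 1 mg/kg. The rise was 1.48 ± 0.28 at 1 mg/kg (log2, SE, adjusted p = 0.00384) and 1.29 ± 0.28 at 0.1 mg/kg (adjusted p = 0.00784), in every fit that left out 1 library. Ldhb, the lactate dehydrogenase subunit of oxidative tissues, was the only one of the 37 genes that fell at both doses with all 9 samples. It had 0.271, 1.07 and 1.24 FPKM at 1 mg/kg, 0.743, 0.756 and 0.662 FPKM at 0.1 mg/kg, and 2.07, 2.04 and 1.84 FPKM with vehicle, which are 18, 68 and 79 recovered reads at 1 mg/kg, 50, 51 and 45 reads at 0.1 mg/kg, and 158, 160 and 150 reads with vehicle. The log2 difference from vehicle was -0.72 ± 0.20 at 1 mg/kg (SE, adjusted p = 0.0184; -0.47 without sample 1, adjusted p = 0.00841) and -0.79 ± 0.20 at 0.1 mg/kg (adjusted p = 0.0144), on a scale that understates the change of so low a gene. The call at 1 mg/kg was lost without vehicle sample 1 or 2 (adjusted p up to 0.0578) and with no filter (adjusted p = 0.0527), and that at 0.1 mg/kg without vehicle sample 2, where the adjusted p was 0.05.

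**Figure D3:**
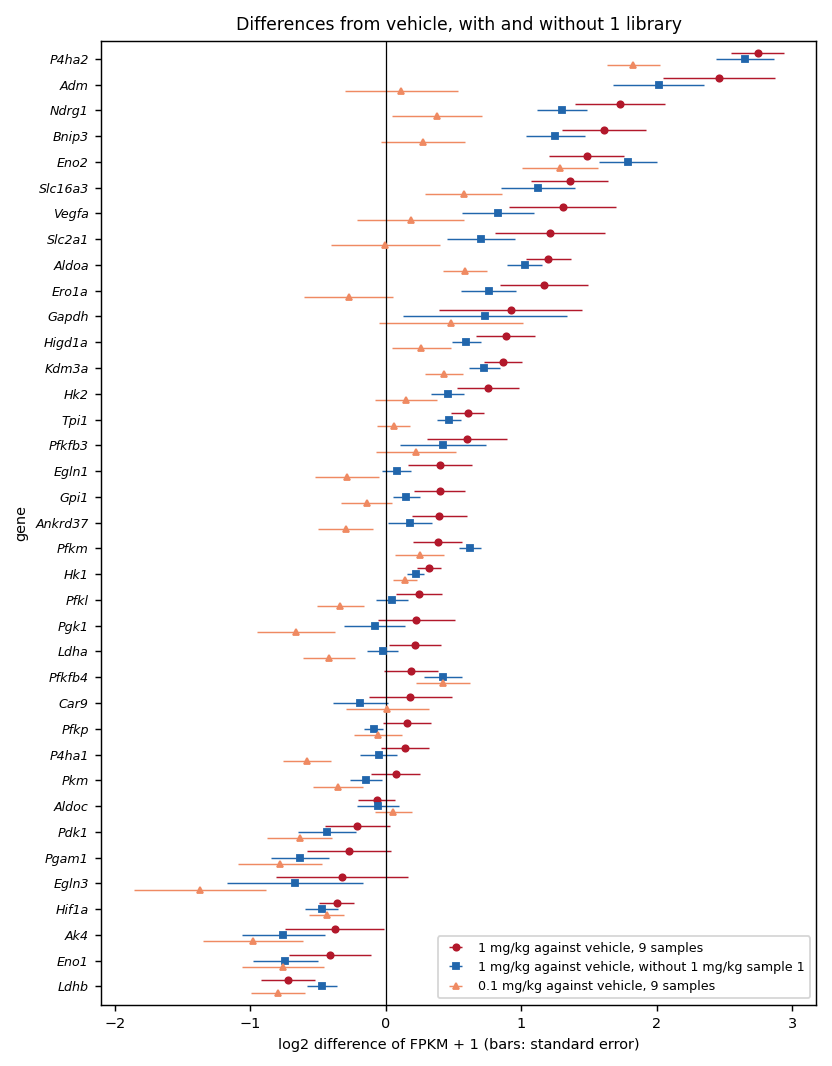
Log2 difference from vehicle (horizontal axis, on FPKM + 1) with its standard error for each of the 37 genes (rows), for 1 mg/kg with all samples (circles), 1 mg/kg without its sample 1 (squares) and 0.1 mg/kg (triangles). P4ha2 is at the top with 2.75 and 2.65 at 1 mg/kg, and for Pgk1, Ldha and Car9 the circle and the square lie on opposite sides of 0.

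Within enzyme families the balance between isozymes differed between the groups in several cases. The shares rest on FPKM and so depend on the exon length assigned to each gene. With 3 samples against 3, an exact two-sided permutation test cannot give a p below 0.1, so none of the shares can pass 0.05. P4ha2 made up 30.5, 38.1 and 32.5% of the summed FPKM of P4ha1 and P4ha2 at 1 mg/kg, 33.7, 22.6 and 35.9% at 0.1 mg/kg, against 7.51, 7.19 and 4.92% with vehicle. The differences from vehicle were 27.1 percentage points at 1 mg/kg and 24.2 at 0.1 mg/kg, without overlap (exact p = 0.1 for both). This was the widest shift among the families, and it was present in each of the 6 digoxin samples.

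Eno2 took 0.958, 4.32 and 3.36% of the summed FPKM of Eno1 and Eno2 at 1 mg/kg, 3.10, 1.29 and 4.49% at 0.1 mg/kg, against 0.413, 0.613 and 0.548% with vehicle (exact p = 0.1 for each dose against vehicle). Of these enolases Eno1 thus held most in all samples, with a larger Eno2 fraction in every digoxin sample. Eno3, the muscle enolase, is not part of this share, and its FPKM, given below, lay above that of Eno2 in every sample. Hk2 took 61.7, 50.2 and 52.03% of Hk1 and Hk2 at 1 mg/kg, 50.99, 44.7 and 45.2% at 0.1 mg/kg, against 45.0, 49.5 and 45.9% with vehicle (exact p = 0.1 at 1 mg/kg and 0.9 at 0.1 mg/kg). Once Hk3 was added to the family, the difference in the Hk2 share at 0.1 mg/kg was -11.3 percentage points (exact p = 0.1). Hk3 also lay above every vehicle sample at 1 mg/kg (log2 difference 1.20 ± 0.24, limma adjusted p = 0.00486). The larger Hk2 share given for 1 mg/kg thus holds for Hk1 and Hk2 only, not for the family with Hk3. Pfkm took 16.97, 34.3 and 35.8% of the 3 phosphofructokinases at 1 mg/kg, 31.5, 32.7 and 36.4% at 0.1 mg/kg, against 24.8, 25.9 and 26.7% with vehicle (exact p = 0.6 at 1 mg/kg and 0.1 at 0.1 mg/kg). Ldha made up 99.96, 99.76 and 99.75% of Ldha and Ldhb at 1 mg/kg, 99.80, 99.80 and 99.79% at 0.1 mg/kg, against 99.59, 99.55 and 99.60% with vehicle, so lactate dehydrogenase RNA was nearly all Ldha throughout. Egln3 made up 61.4, 59.4 and 60.96% of Egln1 and Egln3 at 1 mg/kg, 53.3, 70.4 and 37.95% at 0.1 mg/kg, against 69.1, 73.4 and 73.2% with vehicle (exact p = 0.1 at 1 mg/kg and 0.2 at 0.1 mg/kg).

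**Figure D4:**
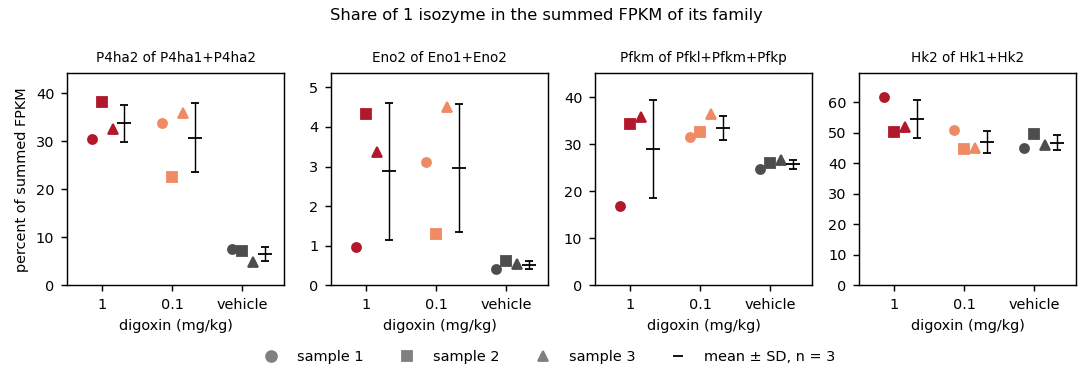
Share of 1 isozyme in the summed FPKM of its family (percent, vertical axes from 0) in each sample of the 3 groups, with the mean ± SD of 3 samples as a black bar. The P4ha2 share is above 22% in all 6 digoxin samples and below 8% in all 3 vehicle samples.

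Digoxin 1 mg/kg sample 1 was above all other 8 samples in 30 of the 37 genes (81.1%), against 8.99% of all tested genes. It was below all the others in 3 of the 37 (8.11%), namely Pfkm, Ldhb and Pfkfb4, against 25.7% of all tested genes. The median log2 difference of sample 1 from the mean of samples 2 and 3 was 0.70 over the 37 genes and -0.095 over all tested genes. It was 1.10 over the 12 other HIF-1 targets, all of which were highest in sample 1, and 0.61 over the 17 glycolysis enzymes, of which 13 were. The gap ran from -0.92 (Eno2) to 1.53 (Slc2a1).

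Without that sample, 17 of the 37 genes rose and 4 fell at 1 mg/kg, where 28.1% of all tested genes rose and 25.7% fell (53.9% in all). The median log2 difference of the 37 genes from vehicle was then 0.22 in place of 0.40. All 15 genes that rose with 9 samples also rose without it, together with Pfkm and Pfkfb4, and Ldhb, Hif1a, Pgam1 and Eno1 fell. Sample 1 is also part of the estimate of the spread at 0.1 mg/kg. Without it, 7 genes rose and 13 fell at 0.1 mg/kg (all tested genes 27.8% and 23.9%, 51.7% in all), against 4 and 4 with it. Leaving out another library also moved the number called at 0.1 mg/kg. It was 4 without 0.1 mg/kg sample 1, 13 without 0.1 mg/kg sample 2, 3 without 0.1 mg/kg sample 3, and 4, 2 and 5 without vehicle samples 1, 2 and 3. In the same order, these fits called 3739, 6633, 3414, 4319, 3492 and 3482 of the 13687 tested genes, against 5781 with all 9 samples. With no filter on low values the number called among the 37 genes was 3 (4970 of all 35321 genes). With only the 2 groups in the fit it was 18 (6465 of all 13687 genes). Other scalings changed the balance at 0.1 mg/kg. Quantile normalization gave 3 higher and 9 lower (all tested genes 2403 and 3552). TPM scaling gave 3 higher and 8 lower (all tested genes 2368 and 3790). The number called at 1 mg/kg lay between 11 and 21 when single libraries were left out (all tested genes 4129 to 7373).

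Set against each other, the doses gave no call among the 37 genes by limma, and 2 among all tested genes (0.0146%), both lower at 1 mg/kg; without sample 1 at 1 mg/kg there was none in either. At an unadjusted p under 0.05, 21 of the 37 genes (56.8%) were past the threshold, all higher at 1 mg/kg, against 13.6% of all tested genes in either direction and 4.87% higher. In limma-voom on recovered reads 0 of the 37 genes and 2 of all genes passed. At 1 mg/kg all 3 values lay above all 3 values at 0.1 mg/kg in 19 genes (51.4%), against 6.05% of all tested genes, and in none were they all below, against 11%. The log2 difference was positive in 35 of the 37 genes (94.6%), against 39.0% of all tested genes, with a median of 0.58 over the 37 genes, -0.048 over all tested genes and 0.37 over the 37 genes without sample 1. The largest differences between the doses were those of Adm (2.35), Ero1a (1.44), Ndrg1 (1.35), Bnip3 (1.34) and Slc2a1 (1.21), with adjusted p of 0.0953, 0.132, 0.157, 0.135 and 0.256 in the same order. Without both sample 1 at 1 mg/kg and sample 2 at 0.1 mg/kg, 4 of the 37 genes passed between the doses (Adm, Ankrd37, P4ha1 and Tpi1), all higher at 1 mg/kg, among 465 of all genes.

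Further HIF targets that are not among the 37 genes were counted in the same way. Of 41 such genes 37 were tested, and 21 rose and 4 fell at 1 mg/kg (median log2 difference 0.65, or 0.51 without sample 1; all tested genes 20.7% and 25.2%), while 6 rose and 6 fell at 0.1 mg/kg (median 0.051; all tested genes 21.6% and 20.7%). The 3 with the smallest p were Car12, Insig2 and Gbe1. Car12, a carbonic anhydrase of the cell surface, had 4.86, 3.60 and 3.59 FPKM at 1 mg/kg, 4.01, 3.11 and 3.20 FPKM at 0.1 mg/kg, and 0.452, 0.289 and 0.373 FPKM with vehicle, and rose at 1 mg/kg (log2 difference 1.86 ± 0.13, adjusted p = 0.000157) and at 0.1 mg/kg (log2 difference 1.69 ± 0.13, adjusted p = 0.000221). Insig2, which holds back sterol synthesis, rose at 1 mg/kg (log2 difference 0.70 ± 0.073, adjusted p = 0.000478) and at 0.1 mg/kg (log2 difference 0.45 ± 0.073, adjusted p = 0.00279), as did Gbe1, the glycogen branching enzyme (log2 difference 1.15 ± 0.12, adjusted p = 0.000531 at 1 mg/kg and log2 difference 0.63 ± 0.12, adjusted p = 0.00565 at 0.1 mg/kg).

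Among 14 tested genes that regulate HIF, 4 rose and none fell at 1 mg/kg, where 20.7% of all tested genes rose and 25.2% fell. At 0.1 mg/kg 5 rose and 1 fell (all tested genes 21.6% and 20.7%). Without digoxin 1 mg/kg sample 1, 6 rose and none fell at 1 mg/kg (all tested genes 28.1% and 25.7%). At 0.1 mg/kg 9 then rose and 2 fell (all tested genes 27.8% and 23.9%). Cited2, which competes with HIF-1 alpha for the coactivators CBP and p300 and is itself a HIF target, had 147, 101 and 102 FPKM at 1 mg/kg, 93.4, 59.5 and 83.2 FPKM at 0.1 mg/kg, and 44.7, 45.6 and 49.3 FPKM with vehicle. It rose at 1 mg/kg (log2 difference 1.28 ± 0.19, adjusted p = 0.00155) and at 0.1 mg/kg (log2 difference 0.72 ± 0.19, adjusted p = 0.0166). Crebbp, which encodes CBP, rose by 0.50 on the log2 scale at 1 mg/kg (adjusted p = 0.00708) and by 0.39 at 0.1 mg/kg (adjusted p = 0.02), and Siah1a, a ubiquitin ligase that acts on prolyl hydroxylases, by 0.47 (adjusted p = 0.00434) and 0.31 (adjusted p = 0.0262). All 3 calls at 0.1 mg/kg were lost without 0.1 mg/kg sample 1 or 3 or vehicle sample 2, that of Cited2 also without vehicle sample 1, and those of Crebbp and Siah1a also without vehicle sample 3 (adjusted p up to 0.0602 for Cited2, 0.0754 for Crebbp and 0.0973 for Siah1a).

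Markers of other cell types differed between the same samples. Their counts stand beside the shares of all tested genes. For the higher dose 20.7% of all tested genes rose and 25.2% fell, and for the lower dose 21.6% rose and 20.7% fell. In the fit without digoxin 1 mg/kg sample 1, 28.1% rose and 25.7% fell for the higher dose. For the lower dose 27.8% then rose and 23.9% fell. Of 10 tested neutrophil markers, 9 rose with the higher dose and 7 with the lower one, with sums of 507, 655 and 1189 FPKM at 1 mg/kg, 785, 272 and 134 FPKM at 0.1 mg/kg and 181, 74.3 and 50.5 FPKM with vehicle. Of 12 tested skeletal muscle markers 5 rose at each dose, and without digoxin 1 mg/kg sample 1 it was 12 at 1 mg/kg and 11 at 0.1 mg/kg. Of 10 fibroblast markers 1 rose and 5 fell at 1 mg/kg, and 3 rose and 4 fell at 0.1 mg/kg, with sums of 613, 395 and 368 FPKM at 1 mg/kg, 406, 705 and 359 FPKM at 0.1 mg/kg and 1001, 1113 and 1048 FPKM with vehicle. None of the 11 endothelial markers passed at either dose with all 9 samples, while without digoxin 1 mg/kg sample 1, 5 rose at 1 mg/kg, and 1 rose and 1 fell at 0.1 mg/kg. Their sum was lowest in digoxin 1 mg/kg sample 1, at 42.8, 139.5 and 132 FPKM at 1 mg/kg, 108, 81.4 and 123 FPKM at 0.1 mg/kg and 79.6, 78.2 and 106 FPKM with vehicle. That library also had the lowest T and NK cell marker sum, with 16.9, 50.1 and 33.2 FPKM at 1 mg/kg, 102, 64.6 and 97.2 FPKM at 0.1 mg/kg and 27.1, 34.4 and 30.2 FPKM with vehicle; 1 of 9 tested markers rose and 1 fell at 1 mg/kg, and 8 rose at 0.1 mg/kg. Of 12 macrophage markers 4 rose and 4 fell at 1 mg/kg, and 5 rose and 1 fell at 0.1 mg/kg, with sums of 1961, 3218 and 2630 FPKM at 1 mg/kg, 3504, 2923 and 4453 FPKM at 0.1 mg/kg and 3127, 2872 and 2798 FPKM with vehicle. No marker gene was at 0 in all samples, and the part of these cells in the levels of the 37 genes was not tested.

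**Figure D5:**
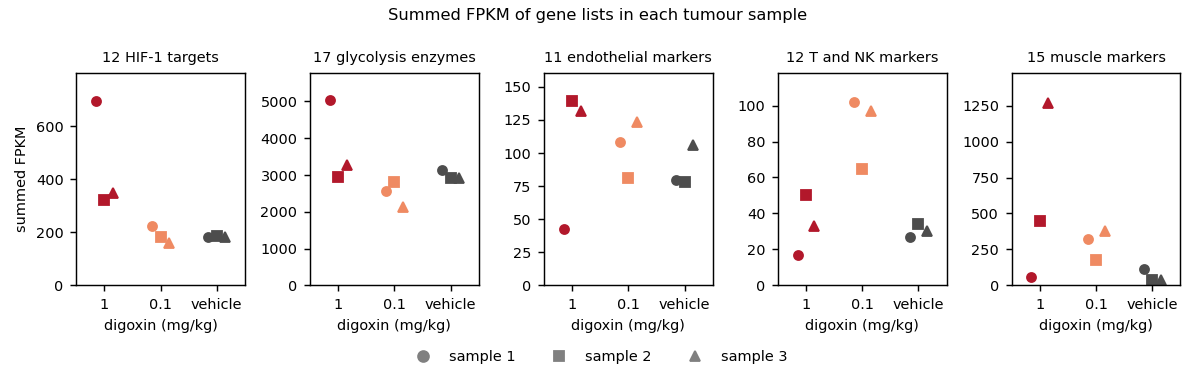
Summed FPKM (vertical axes, from 0) of 2 groups of the 37 genes and of 3 lists of cell type markers in each sample of the 3 groups, with the marker shape giving the sample number. Digoxin 1 mg/kg sample 1 is highest for the 12 HIF-1 targets and the 17 glycolysis enzymes, and lowest for the endothelial and the T and NK cell markers.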

How the data were processed

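The deposited values were FPKM per gene, 1 column per sample, made by the authors. The submitters' processing notes name fastp 0.22.0, HISAT2 2.2.1 and the build GRCh38, which is human although the genes are those of mouse; which counter, annotation and strand setting made the table is not given in the sources used here. With gene lengths of the GENCODE mouse annotation on GRCm38, the FPKM steps gave whole reads (within 0.03 reads) in all 9 samples for 94.2% of 32075 genes with a length and for 36 of the 37 genes described, all but Aldoa. These depths are denominators of FPKM, not counts of all sequenced reads. Relative to the level, random counting error is largest for genes with few recovered reads, as for Ldhb (18 to 160 reads). How reads shared among copies were counted, as for Gapdh, is not covered by it.

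FPKM was transformed to log2(FPKM + 1), and fold changes on that scale understate those of low genes. Genes that reached 1 FPKM in 3 or more samples were fitted with limma 3.58.1 in R 4.3.3 (3 group means, 9 samples, no replicate block, variance trend, two-sided moderated test, Benjamini-Hochberg adjustment over 13687 genes, threshold 0.05; 6 residual and 2.71 prior degrees of freedom). The fit was also run on simulated data with independent normal values, equal spread in every group and no library that stood apart. That run cannot show how the fit behaves with the libraries that stood apart here. Isozyme shares were compared with exact permutation tests in SciPy 1.17.1. The genes, lists and tests were chosen with earlier results of these data known. Described per sample were Hif1a, Vegfa, each gene with a call and the 5 largest differences per comparison; the remaining genes of the 37, for which the rule asked only ranges and counts, were also mostly given per sample. From each list of other genes up to 3 with the smallest p were named. Alternatives were a pseudocount of 0.1, no filter, a mean of at least 5 FPKM, quantile normalization, TPM scaling, no trend, only 2 groups, a replicate block, each library left out, both libraries that stood apart left out and, chosen after seeing the data, limma-voom on recovered reads and Hk3 added to the Hk2 family. No other extension of that family is reported here.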

Additional observations from a re-analysis of the deposited data

How the results depend on the processing

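With all 9 samples, 5781 genes were called at 0.1 mg/kg, 6277 at 1 mg/kg and 2 between the doses, among them 8, 16 and 0 of the 37 genes. A mean of at least 5 FPKM gave 4159 genes at 1 mg/kg. Between the doses the count was 0 with a pseudocount of 0.1, with only the 2 groups or with the replicate block, 1 with the higher filter or without trend, 10 with no filter and 465 without both libraries that stood apart. Leaving out 1 library gave 3414 to 7074 genes at 0.1 mg/kg, 4129 to 7373 at 1 mg/kg and 0 to 133 between the doses; for the 37 genes it gave 2 to 20, 11 to 21 and 0 to 0. The count of the 37 genes at 0.1 mg/kg was 3 with no filter, 18 with only the 2 groups and 23 without both libraries, and 4 between the doses without both libraries. Among all genes the counts at 0.1 mg/kg in those settings were 4970, 6465 and 8424. At 1 mg/kg without both libraries, 17 of the 37 genes were called higher and 6 lower, against 4298 and 4094 of all 13687 tested genes. Ak4 and Pdk1 were among the lower ones (log2 differences -0.76 and -0.43, adjusted p = 0.00609 and 0.0123). TPM scaling moved the median of all genes at 0.1 mg/kg by -0.107 (log2), and calls there were 2952 higher and 2829 lower as deposited, 2403 and 3552 after quantile normalization, and 2368 and 3790 as TPM.

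Deviations of same-numbered samples from their group means had correlations of 0.193, 0.132 and 0.0908 for 0.1 mg/kg with vehicle. They were 0.00057, -0.0587 and -0.0062 for 1 mg/kg with vehicle, and -0.244, -0.441 and 0.279 between the doses. With 3 samples a group these values cannot decide whether the numbers pair the samples, and the main fit used no replicate block. The replicate block gave 4967 genes at 0.1 mg/kg and 5541 at 1 mg/kg, with 7 and 17 of the 37 genes: Egln3 and Kdm3a lost their calls at 0.1 mg/kg, and Slc16a3 at 0.1 mg/kg and Hif1a at 1 mg/kg gained one.

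Signs changed for differences that had no call with all 9 samples, and the cause was not tested. At 0.1 mg/kg the log2 differences became -0.13 (quantile) and -0.020 (TPM) for Aldoc, -0.14, -0.087 and, without both libraries, -0.16 for Car9, and -0.10 and -0.057 for Tpi1. At 1 mg/kg Pkm became -0.10 (quantile) and -0.013 (TPM), and without both libraries Car9 became -0.19, Ldha -0.024, P4ha1 -0.052, Pfkp -0.088, Pgk1 -0.082 and Pkm -0.15. Between the doses and without both libraries Car9 became -0.024, Hif1a -0.025 and Pfkp -0.0099, and limma-voom gave -0.022 for Ldhb. Leaving out 1 library gave ranges across 0 at 0.1 mg/kg for Adm (-0.11 to 0.51), Aldoc (-0.068 to 0.18), Car9 (-0.16 to 0.15), Gapdh (-0.055 to 1.06), Pfkfb3 (-0.14 to 0.43), Slc2a1 (-0.20 to 0.27) and Vegfa (-0.099 to 0.36). At 1 mg/kg it did so for Car9 (-0.19 to 0.43), Ldha (-0.024 to 0.38), P4ha1 (-0.052 to 0.29), Pfkp (-0.088 to 0.30), Pgk1 (-0.082 to 0.43) and Pkm (-0.15 to 0.21). Between the doses the ranges were -0.24 to 0.00031 for Aldoc, -0.20 to 0.42 for Car9, -0.023 to 0.50 for Eno2, -0.037 to 0.17 for Hif1a, -0.085 to 0.32 for Ldhb, -0.036 to 0.37 for Pfkm and -0.033 to 0.35 for Pfkp.

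Of the isozyme shares, 4 changed sign: without digoxin 1 mg/kg sample 1 the difference between the doses was -0.0444 percentage points for Ldha, 1.52 for Pfkm and 0.877 for Eno2, and with Hk3 added, a choice made after seeing the data, the Hk2 share at 0.1 mg/kg differed from vehicle by -11.3. Depth limits Ldhb, Aldoc and Car9, which rest on few reads.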

Other observations

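Genes of the routes that branch from glycolysis were counted against all tested genes, of which 20.7% rose and 25.2% fell at 1 mg/kg, and 21.6% rose and 20.7% fell at 0.1 mg/kg. In the pentose phosphate pathway, which makes NADPH and ribose, 2 of 8 genes rose and 4 fell at 1 mg/kg (median log2 difference -0.43), and 2 rose and 3 fell at 0.1 mg/kg (median -0.36). Tkt, the transketolase, had 40.2, 28.7 and 31.3 FPKM at 1 mg/kg, 33.4, 36.3 and 32.8 FPKM at 0.1 mg/kg, and 51.8, 48.8 and 50.1 FPKM with vehicle, and fell at 1 mg/kg (log2 difference -0.59 ± 0.12, adjusted p = 0.00466) and at 0.1 mg/kg (log2 difference -0.54 ± 0.12, adjusted p = 0.00745). Rpia, which makes ribose 5-phosphate, fell by 0.85 at 1 mg/kg (adjusted p = 0.00106) and by 0.62 at 0.1 mg/kg (adjusted p = 0.00419), on the log2 scale, and Rpe, the epimerase, by 0.54 (adjusted p = 0.00305) and 0.58 (adjusted p = 0.00294). In pyruvate oxidation 1 of 13 tested genes rose and 5 fell at 1 mg/kg, and 2 rose and 4 fell at 0.1 mg/kg. Without digoxin 1 mg/kg sample 1, 3 rose and 5 fell at each dose. In that fit 28.1% of all tested genes rose and 25.7% fell at 1 mg/kg, and 27.8% rose and 23.9% fell at 0.1 mg/kg. Pdha1, the catalytic subunit of pyruvate dehydrogenase, had 15.6, 13.7 and 13.8 FPKM at 1 mg/kg, 13.6, 14.7 and 10.6 FPKM at 0.1 mg/kg, and 23.1, 24.8 and 25.4 FPKM with vehicle, and fell at both doses (log2 difference -0.73 ± 0.12, adjusted p = 0.00202 at 1 mg/kg and log2 difference -0.87 ± 0.12, adjusted p = 0.00122 at 0.1 mg/kg). Cs, citrate synthase, fell at both doses as well (log2 difference -0.37 ± 0.073, adjusted p = 0.00473 at 1 mg/kg and log2 difference -0.28 ± 0.073, adjusted p = 0.0153 at 0.1 mg/kg), whereas Pcx, pyruvate carboxylase, rose at both (log2 difference 1.04 ± 0.20, adjusted p = 0.00398 at 1 mg/kg and log2 difference 0.81 ± 0.20, adjusted p = 0.0123 at 0.1 mg/kg). The Cs call at 0.1 mg/kg was lost without 0.1 mg/kg sample 1 or 3 or vehicle sample 1 or 3 (adjusted p up to 0.0554).

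The glycolysis isozymes Hk3 and Eno3 were among the genes that rose at both doses. Of 10 tested genes of other glycolysis and lactate steps, 3 rose and 2 fell at 1 mg/kg (all tested genes 20.7% and 25.2%). At 0.1 mg/kg 2 rose and 1 fell (all tested genes 21.6% and 20.7%). Leaving out digoxin 1 mg/kg sample 1 raised the number that rose to 4 with either dose (all tested genes 28.1% at 1 mg/kg and 27.8% at 0.1 mg/kg). Hk3, the hexokinase of myeloid cells, had 21.1, 13.8 and 16.6 FPKM at 1 mg/kg, 34.9, 19.02 and 30.6 FPKM at 0.1 mg/kg, and 8.24, 6.97 and 5.47 FPKM with vehicle, and rose at 1 mg/kg (log2 difference 1.20 ± 0.24, adjusted p = 0.00486) and at 0.1 mg/kg (log2 difference 1.86 ± 0.24, adjusted p = 0.00115). Eno3, the muscle enolase, had 39.2, 78.1 and 95.3 FPKM at 1 mg/kg, 55.3, 39.3 and 52.4 FPKM at 0.1 mg/kg, and 19.9, 17.2 and 20.3 FPKM with vehicle, and rose at both doses (log2 difference 1.75 ± 0.29, adjusted p = 0.00234 at 1 mg/kg and log2 difference 1.30 ± 0.29, adjusted p = 0.00858 at 0.1 mg/kg). Tigar, a phosphatase that slows glycolysis, fell at both (log2 difference -0.40 ± 0.084, adjusted p = 0.00575 at 1 mg/kg and log2 difference -0.25 ± 0.084, adjusted p = 0.0399 at 0.1 mg/kg). The Tigar call at 0.1 mg/kg held only without digoxin 1 mg/kg sample 1 or 0.1 mg/kg sample 2 among the fits that leave out 1 library (adjusted p up to 0.126, without vehicle sample 2). The neutrophil, macrophage and muscle marker sums also differed between samples, as given above, and their part in these values was not tested. Of 5 tested erythroid markers 1 rose at each dose, of 11 proliferation genes 1 rose and 3 fell at 1 mg/kg and 1 rose and 5 fell at 0.1 mg/kg, and the 1 tested adipocyte marker passed at neither. Without digoxin 1 mg/kg sample 1, 5 proliferation genes fell at 1 mg/kg (25.7% of all tested genes) and the adipocyte marker rose at both doses.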
